A study of Mus musculus with 12 samples.

Results

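The 8 genes of a transcription factor complex of blood formation described here are Gata2, Gata3, Tal1, Lyl1, Lmo2, Ldb1, Zfpm1 and Cbfa2t3. They were chosen by name for the complex, each was held by a single row of the deposited tables, and all 8 of the 8 named were found among 24138 rows. RNA was sequenced from 12 samples of cells sorted from the mouse aorta-gonad-mesonephros region, the part of the embryo where clusters of blood-forming cells bud from the aortic wall. The sort took cells of C57BL/6 embryos that carried CD31 and CD117 (Kit) and lacked SSEA-1, in 4 groups of 3 samples. S/G2/M cells were mAG-positive cells of Fucci Green animals at E11.5 or E10.5, and G1 cells were mKO2-positive cells of Fucci Red animals at the same ages. The 2 Fucci strains carry different fluorescent cell cycle reporters, so phase and reporter strain cannot be told apart in these data. The labels do not say whether a sample pooled several embryos. Values are the authors' group values in FPKM, a fragment count scaled to transcript length and to sequencing depth, with 1 value per gene and group. No spread between samples was given, the depth of the samples is unknown, and a change is called where the q-value of the authors' deposited table was under 0.05.

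GATA factors bind DNA through zinc fingers, and Tal1 and Lyl1 are basic helix-loop-helix proteins that bind E-box sites as partners of E proteins. Lmo2 binds no DNA itself and links the DNA-binding proteins to Ldb1, which binds itself and can bring distant sites together, while Cbfa2t3 (ETO2) and Zfpm1 (FOG1) bring corepressors or modify the GATA factors. In the mouse embryo Gata2, Tal1 and Lmo2 are needed for blood formation, and Gata2 is needed in the aortic clusters themselves. Gata3 is best known from T cells and from the sympathetic nervous system, which lies close to the aorta.

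Promoters are shown for 4 genes, because Gata2, Cbfa2t3 and Lyl1 had the 3 largest age differences among the members in S/G2/M cells and Tal1 is the nearest relative of Lyl1 among them. The sequences are those of RefSeq on GRCm38.p6, which is the assembly also called mm10. They hold the 250 bases before the start and 50 bases from the start on, its first base included. Capitals mark a GATA word (GATA with A or T before it and A or G after it), an E-box word (CAGNTG) or an ETS word (CCGGAA, or else the letters AGGAAG) on either strand. The upstream start of Gata2 (chr6:88193641-88193940, plus strand) held none of these words, its downstream start (chr6:88198414-88198713, plus strand) held 1 E-box word, and the first start of Tal1 (chr4:115056176-115056475, plus strand) held 1 GATA and 1 E-box word. The promoter of Lyl1 (chr8:84701207-84701506, plus strand) held 1 E-box and 2 ETS words, and the first start of Cbfa2t3 (chr8:122699060-122699359, minus strand) held 1 GATA, 3 E-box and 3 ETS words.
Gata2, upstream start: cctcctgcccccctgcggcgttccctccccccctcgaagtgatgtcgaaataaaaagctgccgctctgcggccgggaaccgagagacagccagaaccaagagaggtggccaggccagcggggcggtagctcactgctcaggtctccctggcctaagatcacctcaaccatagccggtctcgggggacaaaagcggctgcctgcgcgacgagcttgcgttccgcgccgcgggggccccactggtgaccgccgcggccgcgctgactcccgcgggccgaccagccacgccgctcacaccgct
Gata2, downstream start: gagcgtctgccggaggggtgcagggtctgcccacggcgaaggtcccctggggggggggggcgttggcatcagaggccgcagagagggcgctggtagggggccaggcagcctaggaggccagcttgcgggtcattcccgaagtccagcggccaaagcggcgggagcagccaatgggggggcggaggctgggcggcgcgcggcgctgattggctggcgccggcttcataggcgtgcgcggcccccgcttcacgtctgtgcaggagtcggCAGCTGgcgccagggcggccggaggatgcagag
Lyl1: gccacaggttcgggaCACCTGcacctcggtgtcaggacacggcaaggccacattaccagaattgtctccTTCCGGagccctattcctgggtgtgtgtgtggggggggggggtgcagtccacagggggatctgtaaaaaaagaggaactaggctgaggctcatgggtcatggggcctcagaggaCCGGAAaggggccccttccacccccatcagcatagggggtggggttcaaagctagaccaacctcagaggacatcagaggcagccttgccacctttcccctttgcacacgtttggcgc
Cbfa2t3, first start: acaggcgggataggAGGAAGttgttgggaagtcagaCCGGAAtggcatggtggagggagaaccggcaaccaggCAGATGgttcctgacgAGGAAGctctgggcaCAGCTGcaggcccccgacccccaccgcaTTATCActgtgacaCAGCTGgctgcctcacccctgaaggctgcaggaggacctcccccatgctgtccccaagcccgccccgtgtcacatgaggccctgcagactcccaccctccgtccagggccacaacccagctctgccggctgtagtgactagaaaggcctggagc
Tal1, first start: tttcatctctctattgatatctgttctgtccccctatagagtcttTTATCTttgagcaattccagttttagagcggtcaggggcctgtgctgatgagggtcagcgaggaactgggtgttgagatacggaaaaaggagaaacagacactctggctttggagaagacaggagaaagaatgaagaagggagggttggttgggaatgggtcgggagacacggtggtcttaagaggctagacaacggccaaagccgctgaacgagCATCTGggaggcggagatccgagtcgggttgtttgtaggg

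Of 12 RefSeq promoters found for 7 members, 4 held a GATA word, 7 an E-box word and 4 an ETS word. Among 32851 mouse promoters of the same length, 29.8% held a GATA word, 51.4% an E-box word, 45.2% an ETS word and 6.28% all 3. The first start of Cbfa2t3 held all 3 kinds, and of the others only the promoter of Gata3 did. Such a word is a match of letters and does not show that a factor binds there. The deposited row of Gata2 spans 88198664 to 88207032 of chromosome 6, so it begins at the downstream start. In the GENCODE annotation the gene begins 4773 bases further upstream, at 88193891, the start that in the mouse is known from blood and nerve cells, and the first exon at that start lies outside the deposited span. The deposited rows of Gata3, Tal1, Lyl1, Zfpm1 and Cbfa2t3 likewise began at a RefSeq start of the table.

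**Figure D1:**
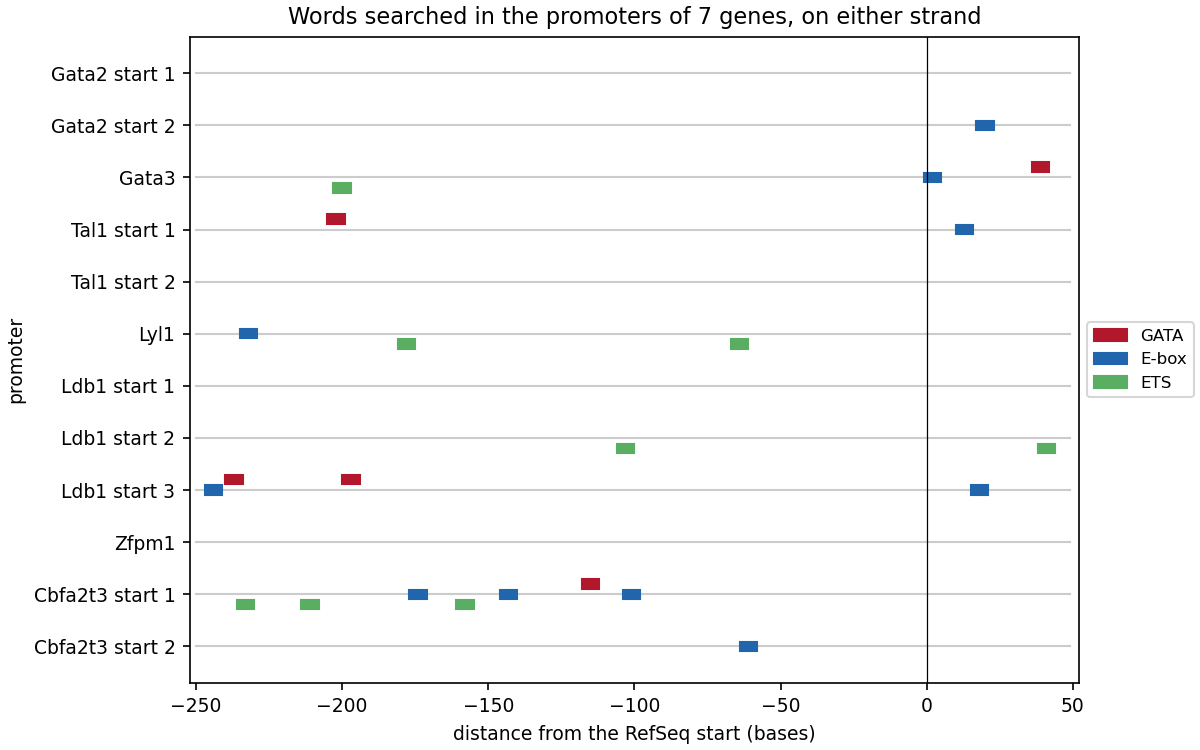
Positions of the GATA, E-box and ETS words in the 12 promoters of 7 genes, with the distance from the RefSeq start in bases on the horizontal axis, 1 line per promoter and each block 6 bases wide. The first start of Cbfa2t3 carries 7 words, more than any other promoter drawn, while no word is drawn for Gata2 start 1, Tal1 start 2, Ldb1 start 1 and Zfpm1.

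The levels of the 8 genes per length differed widely. Lmo2 had the highest mean over the 4 groups at 80.7 FPKM, followed by Ldb1 at 37.0 FPKM, Lyl1 at 28.4 FPKM, Gata2 at 14.4 FPKM and Tal1 at 12.7 FPKM. Cbfa2t3 at 7.99 FPKM, Zfpm1 at 7.49 FPKM and Gata3 at 3.99 FPKM were lower. Among 13426 genes with at least 1 FPKM in some group, Lmo2 stood above 93.7% and Gata3 above 32.0%. Each group stands in 2 of the 4 tables used, which the authors normalized separately, and a level in a group is the mean of both. The 2 values differed by 0.88% to 4.81% for these genes.

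Of the 2 GATA factors, Gata2 followed age. Its level was 22.3 FPKM in E11.5 S/G2/M cells, 19.4 FPKM in E11.5 G1 cells, 7.73 FPKM in E10.5 S/G2/M cells and 8.18 FPKM in E10.5 G1 cells. Both E11.5 groups were above both E10.5 groups, and the phases of one age lay close together. Gata3, on chromosome 2 (9857078 to 9878600), had 2.35 FPKM in E11.5 S/G2/M cells, 4.58 FPKM in E11.5 G1 cells, 2.61 FPKM in E10.5 S/G2/M cells and 6.41 FPKM in E10.5 G1 cells. Both G1 groups were above both S/G2/M groups, the other order from Gata2, although none of its differences was called.

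The 2 helix-loop-helix genes also had different orders. Tal1, on chromosome 4 (115056426 to 115071755), had 13.8 FPKM in E11.5 S/G2/M cells, 10.47 FPKM in E11.5 G1 cells, 13.0 FPKM in E10.5 S/G2/M cells and 13.7 FPKM in E10.5 G1 cells. Its highest level was 1.32 times its lowest, the smallest range of the 8 genes. Lyl1 had 46.4 FPKM in E11.5 S/G2/M cells, 34.8 FPKM in E11.5 G1 cells, 17.2 FPKM in E10.5 S/G2/M cells and 15.1 FPKM in E10.5 G1 cells. The deposited locus of Lyl1 on chromosome 8 (84701457 to 84800338) also covers Nfix on the other strand, and the annotated gene ends at 84704715. Nfix had 1.25 FPKM in E11.5 S/G2/M cells and 0.141 FPKM in E10.5 S/G2/M cells, far below Lyl1, and strand handling in the counting was not given in the sources at hand.

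Of the bridging pair, Lmo2 on chromosome 2 (103957995 to 103981878) had 141 FPKM in E11.5 S/G2/M cells, 78.3 FPKM in E11.5 G1 cells, 61.1 FPKM in E10.5 S/G2/M cells and 42.8 FPKM in E10.5 G1 cells. The highest group was 3.29 times the lowest. Ldb1, on chromosome 19 (46032601 to 46045211), ran nearly the other way, with 30.0 FPKM in E11.5 S/G2/M cells, 36.1 FPKM in E11.5 G1 cells, 45.0 FPKM in E10.5 S/G2/M cells and 36.8 FPKM in E10.5 G1 cells. Its highest level was 1.499 times its lowest, and none of its differences was called. In the GENCODE annotation 6 of the 8 members overlap another gene: beside Lyl1 with Nfix, Ldb1 does with Pprc1 on the other strand, and Gata3, Lmo2, Zfpm1 and Cbfa2t3 each do with at least 1 other gene. Only Gata2 and Tal1 have no such overlap, and the values of the other 6 may share fragments with their neighbours.

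Of the cofactors, Cbfa2t3 on chromosome 8 (122625136 to 122699109) had 13.95 FPKM in E11.5 S/G2/M cells, 7.84 FPKM in E11.5 G1 cells, 4.30 FPKM in E10.5 S/G2/M cells and 5.86 FPKM in E10.5 G1 cells. The E11.5 S/G2/M group stood apart above the other 3. Zfpm1, on the same chromosome (122282141 to 122337247), had 7.92 FPKM in E11.5 S/G2/M cells, 5.99 FPKM in E11.5 G1 cells, 7.07 FPKM in E10.5 S/G2/M cells and 8.97 FPKM in E10.5 G1 cells. Its highest and lowest groups were 1.497 times apart, with no order by age or by phase.

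**Figure D2:**
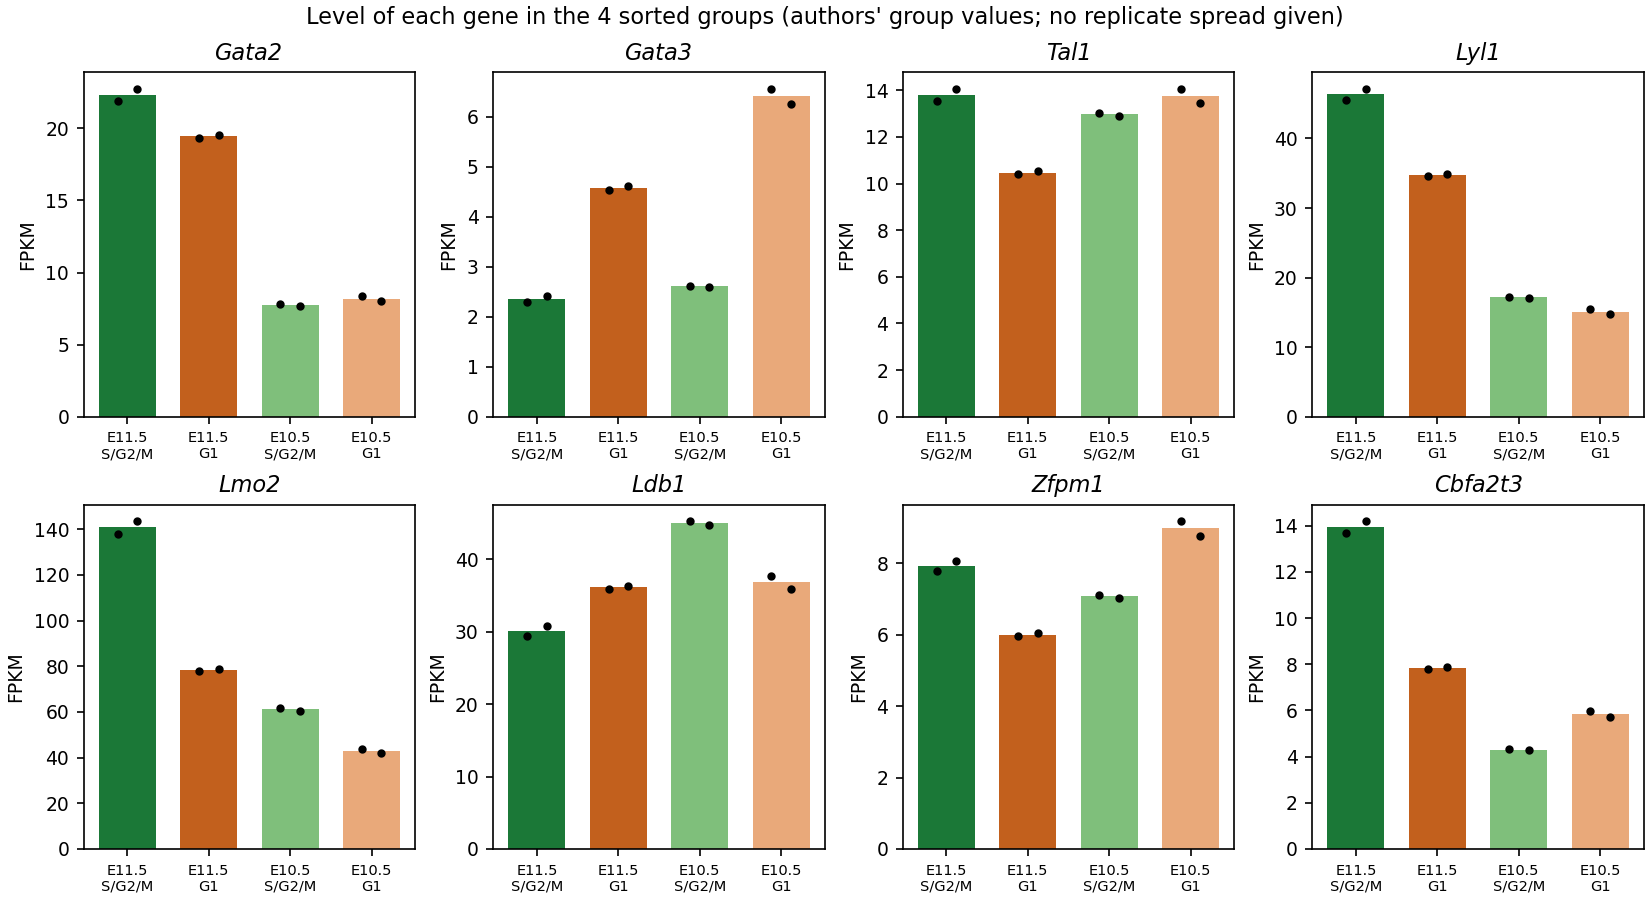
Level of each of the 8 genes in FPKM, from 0, in the groups E11.5 S/G2/M, E11.5 G1, E10.5 S/G2/M and E10.5 G1; bars are the mean of the 2 points, which are the authors' group values in the 2 tables that hold the group. Gata2, Lyl1 and Lmo2 are higher in both E11.5 groups, Cbfa2t3 is highest in E11.5 S/G2/M cells, and Tal1 varies least.

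The comparison of S/G2/M cells at E11.5 with those at E10.5 asked how dividing cluster cells changed with age, and it is the only one of the 4 comparisons in which a member was called. Cbfa2t3, Lmo2 and Gata2 rose, and none of the 8 fell. That is 3 of 8 members, where 4.07% of 12768 tested genes were called in either direction and 2.14% were called as higher. Cbfa2t3, which recruits corepressors to the complex, had 14.2 FPKM at E11.5 and 4.27 FPKM at E10.5, a 3.33-fold rise (log2 1.74; the authors' deposited table gave q = 0.00308). Its p of 5e-05 is the smallest that the authors' deposited table holds. Gata2 had 22.7 FPKM at E11.5 and 7.67 FPKM at E10.5, a 2.97-fold rise (log2 1.57; the authors' deposited table gave q = 0.0334). Lmo2 had 143.7 FPKM at E11.5 and 60.6 FPKM at E10.5, a 2.37-fold rise (log2 1.24; the authors' deposited table gave q = 0.0201).

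Lyl1 just missed the threshold, with 47.2 FPKM at E11.5 and 17.0 FPKM at E10.5 in S/G2/M cells (log2 1.47; the authors' deposited table gave q = 0.0639). It is within 0.085, the threshold at which the authors marked genes in their deposited table and under which 5.5% of all tested genes lay. Before adjustment, 4 of 8 members reached p under 0.05 (authors' deposited table), as 13.9% of all tested genes did. The other 4 members had log2 differences of 0.20 (Zfpm1), 0.12 (Tal1), -0.11 (Gata3) and -0.54 (Ldb1). Their q-values in the authors' deposited table were between 0.581 and 0.974. The median log2 difference of the 8 members was 0.72, and that of all tested genes above 0 in both groups was 0.03.

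**Figure D3:**
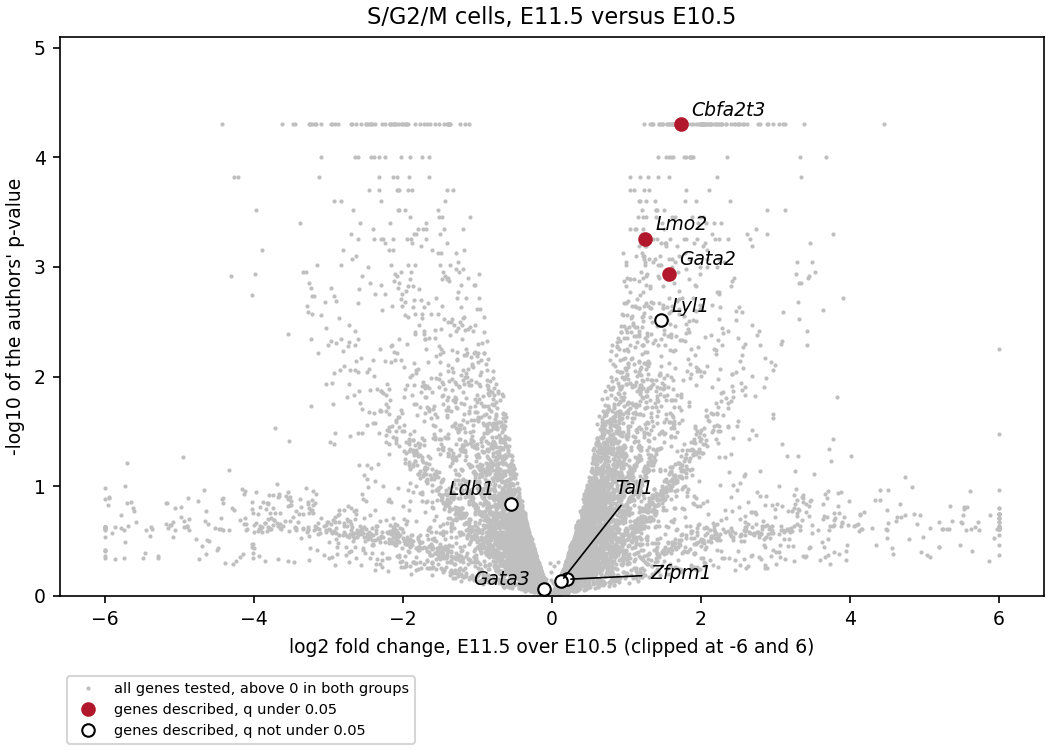
Each point is a gene tested by the authors in S/G2/M cells and above 0 in both groups, with the log2 fold change of E11.5 over E10.5 on the horizontal axis and -log10 of the authors' p-value on the vertical axis. Cbfa2t3, Lmo2 and Gata2 (filled) and Lyl1 (open) lie on the right, Cbfa2t3 at the smallest p of 5e-05, while Ldb1, Tal1, Zfpm1 and Gata3 lie near the bottom centre.

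In G1 cells the same ages were compared, and none of the 8 members was called, where 4.45% of 12953 tested genes were. Before adjustment, p was under 0.05 for 3 members, Gata2, Lyl1 and Lmo2, by the authors' deposited table, as it was for 15.4% of all tested genes. Gata2 had 19.6 FPKM at E11.5 and 8.01 FPKM at E10.5 (log2 1.29; the authors' deposited table gave q = 0.162). Lyl1 had 34.9 FPKM at E11.5 and 14.8 FPKM at E10.5 (log2 1.24; the authors' deposited table gave q = 0.289). Lmo2 had 78.7 FPKM at E11.5 and 41.9 FPKM at E10.5 (log2 0.91; the authors' deposited table gave q = 0.296). All 3 lay on the same side in G1 as in S/G2/M cells, and the groups of the 2 age comparisons are different samples.

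Among the other members in G1 cells, Cbfa2t3 had 7.90 FPKM at E11.5 and 5.73 FPKM at E10.5, a log2 difference of 0.46 against 1.74 in S/G2/M cells. Whether the age difference of Cbfa2t3, Lmo2 or Gata2 differs between the phases could not be tested without values per sample. Tal1 (log2 -0.35), Gata3 (-0.44) and Zfpm1 (-0.54) were lower at E11.5 in G1 cells without being called. Ldb1 differed by 0.02, and by -0.09 when the groups were scaled to the same median, so its direction depended on the scaling. That scaling moved all genes of this comparison by 0.105 on the log2 scale and left the direction of the other 7 members as it was. The median of the 8 members was 0.24, and that of all tested genes 0.02.

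The phase comparisons asked whether cells in S/G2/M differ from cells in G1. All 14 genes of a G2 and mitosis list were higher in S/G2/M cells at both ages, 3 of them called at E11.5 and 6 at E10.5. At E11.5 none of the 8 members was called, where 0.701% of 12414 tested genes were, and Lmo2 alone reached p under 0.05 before adjustment (authors' deposited table), as 8.27% of all tested genes did. Lmo2 had 138 FPKM in S/G2/M cells and 77.8 FPKM in G1 cells (log2 0.83; the authors' deposited table gave q = 0.564). Cbfa2t3 had 13.7 FPKM in S/G2/M cells and 7.79 FPKM in G1 cells (log2 0.81; the authors' deposited table gave p = 0.0520 before adjustment). Gata3 had 2.30 FPKM in S/G2/M cells and 4.54 FPKM in G1 cells (log2 -0.98; the authors' deposited table gave q = 0.788). The other 5 had log2 differences between -0.29 (Ldb1) and 0.40 (Lyl1).

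At E10.5 none of the 8 members was called either, where 0.655% of 12984 tested genes were, and 0 reached p under 0.05 before adjustment (authors' deposited table), as 6.69% of all tested genes did. The largest difference was that of Gata3, with 2.63 FPKM in S/G2/M cells and 6.57 FPKM in G1 cells (log2 -1.32; the authors' deposited table gave p = 0.0630 before adjustment). Lmo2 had 61.6 FPKM in S/G2/M cells and 43.7 FPKM in G1 cells (log2 0.49). Cbfa2t3 had 4.33 FPKM in S/G2/M cells and 5.99 FPKM in G1 cells (log2 -0.47), the opposite sign from E11.5, and neither was called. The authors also deposited each phase comparison in the other order, and none of the 8 members was called there either.

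**Figure D4:**
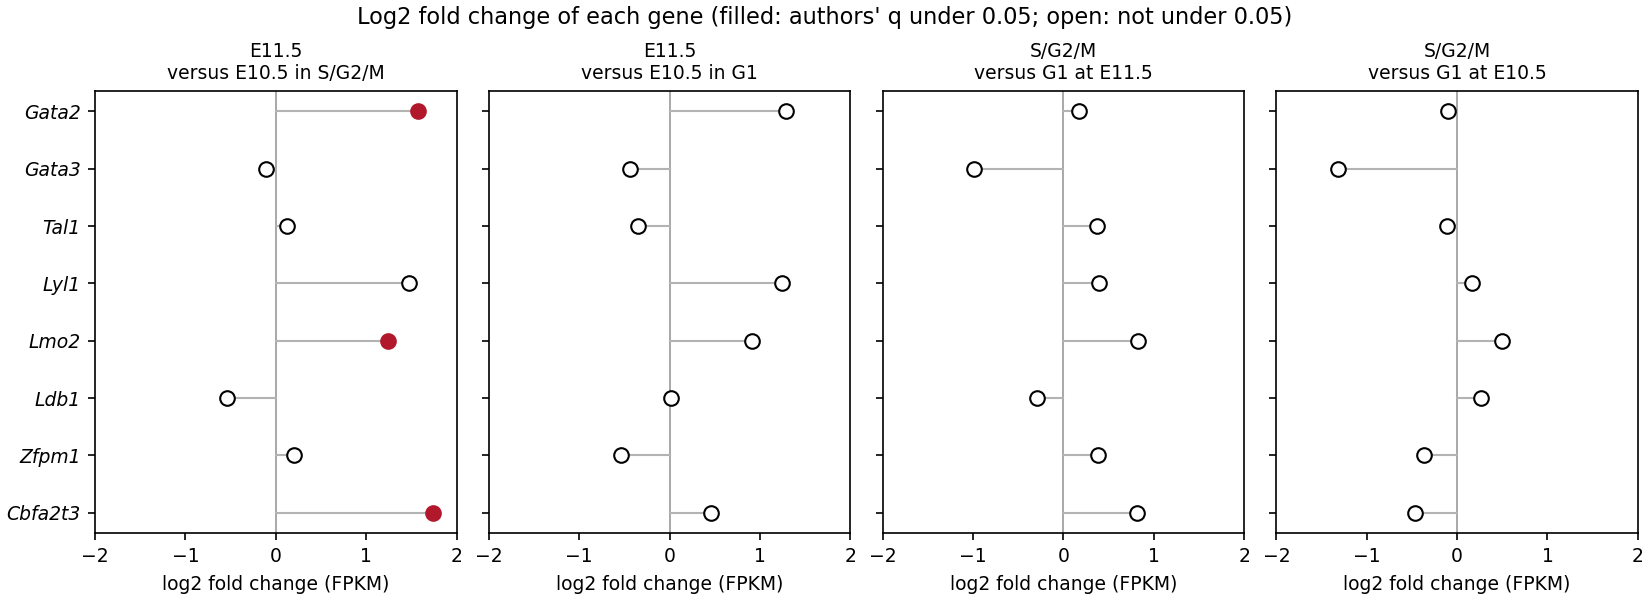
Log2 fold change of each gene in the 4 comparisons, with E11.5 over E10.5 in S/G2/M and in G1 cells and S/G2/M over G1 at E11.5 and at E10.5; filled points have a q under 0.05 in the authors' deposited table. The 3 filled points, Gata2 (1.57), Lmo2 (1.24) and Cbfa2t3 (1.74), are all in S/G2/M cells by age.

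Because FPKM is per length, the members can be set against each other within a table. Lmo2 had 4.68 times the level of Ldb1 in E11.5 S/G2/M cells and 1.35 times in E10.5 S/G2/M cells, and the ratio in G1 cells was 2.17 at E11.5 and 1.17 at E10.5. The level of Lyl1 was 3.35 times that of Tal1 in E11.5 S/G2/M cells and 1.32 times in E10.5 S/G2/M cells. In G1 cells that ratio was 3.32 at E11.5 and 1.10 at E10.5. Gata2 had 9.44 times the level of Gata3 in E11.5 S/G2/M cells and 2.95 times in E10.5 S/G2/M cells, and in G1 cells 4.24 times at E11.5 and 1.28 times at E10.5. All 3 ratios were thus higher at E11.5 in both phases, and they follow from the levels above, with no test of their own.

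Genes that act with the complex were read from a list of 17 partners. In S/G2/M cells Runx1 and Erg rose with age, 2 of 16 tested, and none fell, where 4.07% of all tested genes were called. Runx1, without which aortic clusters do not form in the mouse, had 40.9 FPKM at E11.5 and 10.1 FPKM at E10.5 (log2 2.02; the authors' deposited table gave q = 0.00308). Erg, an ETS factor that shares many sites with the complex in blood progenitors, had 61.6 FPKM at E11.5 and 26.1 FPKM at E10.5 (log2 1.24; the authors' deposited table gave q = 0.0265). In G1 cells Runx1 (log2 1.51) and the ETS factor gene Fli1 rose, 2 of 15 tested, where 4.45% of all tested genes were called. Fli1 had 93.4 FPKM at E11.5 and 38.8 FPKM at E10.5 in G1 cells (log2 1.27), and 77.8 and 39.2 FPKM at the same ages in S/G2/M cells, where q was 0.0514 (authors' deposited table) and missed the threshold.

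The partners other than Runx1, Erg and Fli1 were not called in any of the 4 comparisons. Tcf3, an E protein that pairs with Tal1 and Lyl1, had 37.2 FPKM at E11.5 and 39.4 FPKM at E10.5 in S/G2/M cells, a log2 difference of -0.08. Tcf12, another E protein, had 34.3 FPKM at E11.5 and 54.0 FPKM at E10.5 in S/G2/M cells (log2 -0.66). Ssbp3, which binds and stabilises Ldb1, had 29.8 FPKM at E11.5 and 48.7 FPKM at E10.5 in S/G2/M cells (log2 -0.71). Of the other Ssbp genes on the list, Ssbp2 was also lower at E11.5 in S/G2/M cells (log2 -0.61). Ssbp4 went the other way, with 25.8 FPKM at E11.5 and 8.55 FPKM at E10.5 (log2 1.59). Gata1, the GATA factor that takes the place of Gata2 in red cell precursors, had 1.37 FPKM at E11.5 and 3.58 FPKM at E10.5 in S/G2/M cells and was not called. No partner was called by phase. Before adjustment, p was under 0.05 in the authors' deposited table for 7 of 16 partners in S/G2/M cells by age. In G1 cells by age it was 5 of 15, and by phase 0 of 16 at E11.5 and 1 of 16 at E10.5. By age, Tcf12 and Ssbp4 were among them in both phases, and Ssbp3 in S/G2/M cells. The shares of all tested genes were 13.9% and 15.4% by age, and 8.27% and 6.69% by phase. The median log2 differences of the list were 0.05 in S/G2/M and -0.04 in G1 cells by age, and -0.14 at E11.5 and -0.05 at E10.5 by phase, each within 0.1 of the medians of all genes.

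The Id proteins bind E proteins and keep them from DNA. All 4 Id genes were lower at E11.5 in both phases, and none was called or reached p under 0.05 before adjustment (authors' deposited table). Id3 had 85.1 FPKM at E11.5 and 122 FPKM at E10.5 in S/G2/M cells (log2 -0.52), and 67.6 FPKM at E11.5 and 123 FPKM at E10.5 in G1 cells (-0.86). Id1 had 26.3 FPKM at E11.5 and 44.4 FPKM at E10.5 in S/G2/M cells (log2 -0.76), and 17.5 FPKM at E11.5 and 40.4 FPKM at E10.5 in G1 cells (-1.21). Id2 was lower by smaller amounts (-0.37 in S/G2/M and -0.69 in G1 cells), and Id4 was under 4 FPKM in every group. The list medians were -0.64 in S/G2/M and -1.03 in G1 cells, against 0.03 and 0.02 for all genes. By phase, the medians were 0.44 over 3 tested genes at E11.5 and 0.09 over 4 at E10.5, with no call.

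Of 13 corepressor genes, 1 was called in S/G2/M cells by age, Irf2bp2, where 4.07% of all tested genes were called. Irf2bp2, whose protein binds ETO2 in red cell precursors, had 94.7 FPKM at E11.5 and 40.1 FPKM at E10.5 (log2 1.24; the authors' deposited table gave q = 0.00971). No other corepressor was called in any comparison. Before adjustment, 2 of 13 in S/G2/M cells and 2 of 12 in G1 cells by age had p under 0.05 (authors' deposited table), and 0 of 13 by phase at either age. The shares of all tested genes were close to this by age, 13.9% and 15.4%, and were 8.27% at E11.5 and 6.69% at E10.5 by phase. Hdac1, a histone deacetylase, had 121 FPKM at E11.5 and 127 FPKM at E10.5 in S/G2/M cells, and Hdac2 had 85.3 and 141 FPKM at the same ages (log2 -0.73). Chd4, the remodelling enzyme of the NuRD complex, had 67.7 FPKM at E11.5 and 71.0 FPKM at E10.5 in S/G2/M cells. Gfi1b, a repressor gene of red cell and platelet precursors, was not called in any comparison and had the largest phase difference of these genes at E11.5, with 22.9 FPKM in S/G2/M cells and 2.41 FPKM in G1 cells (the authors' deposited table gave q = 0.686). The list medians were 0.02 in S/G2/M and -0.10 in G1 cells by age, and 0.10 at E11.5 and 0.16 at E10.5 by phase.

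**Figure D5:**
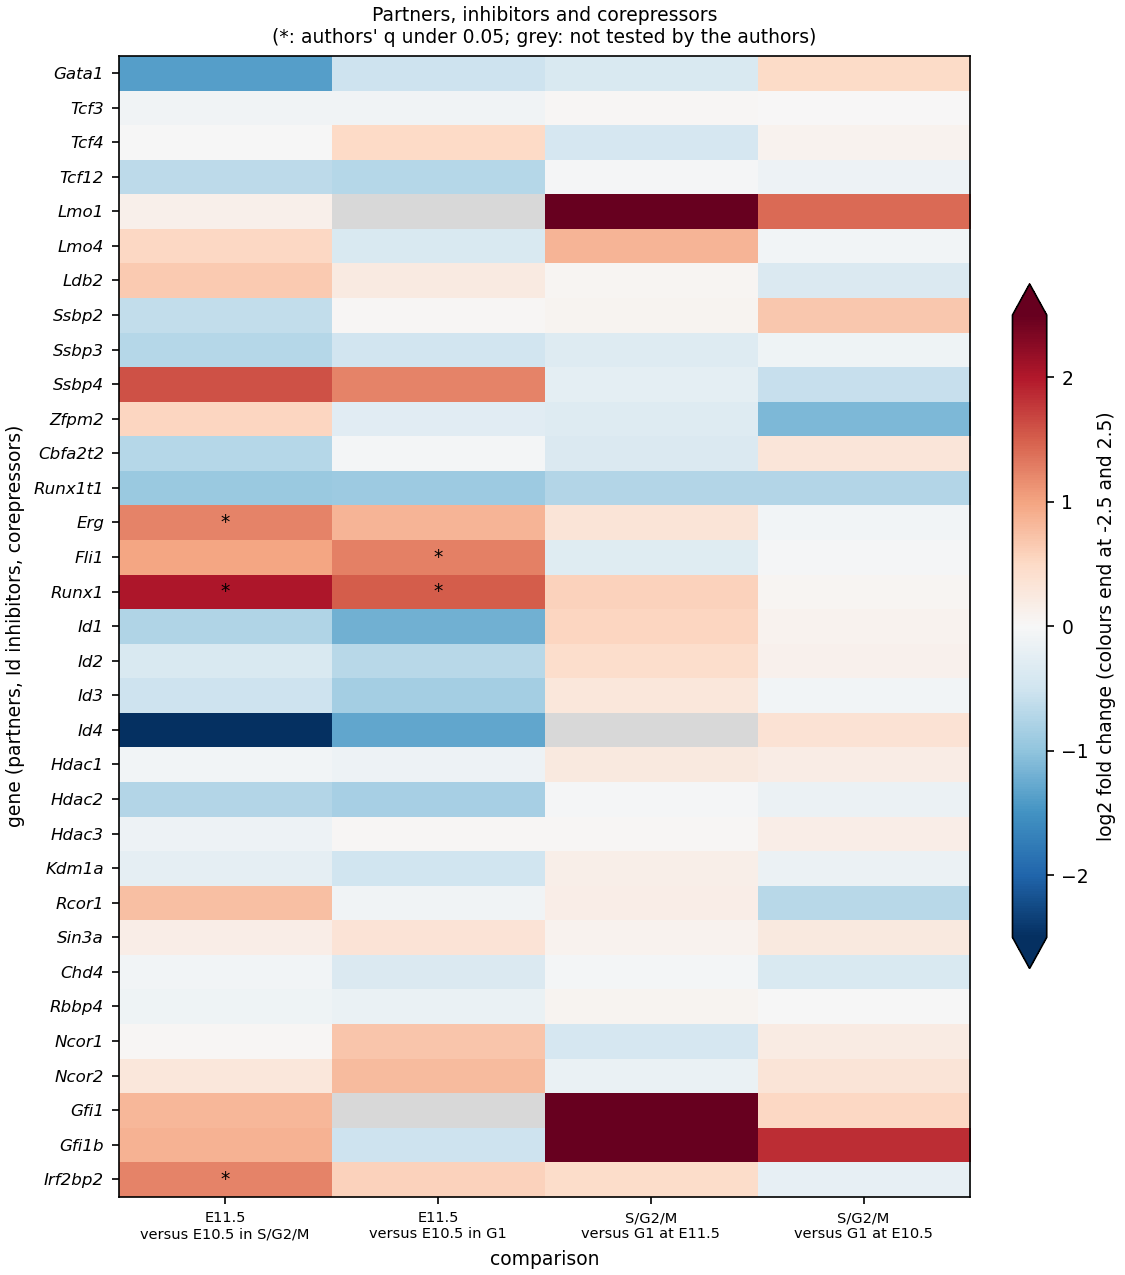
Log2 fold changes of the partners, the Id inhibitors and the corepressors in the 4 comparisons; red is higher in the E11.5 or S/G2/M group, grey was not tested by the authors (Tal2, tested in none, is left out), and stars mark a q under 0.05 in the authors' deposited table. The 5 stars are those of Erg, Runx1 and Irf2bp2 in S/G2/M cells by age and of Fli1 and Runx1 in G1 cells by age, and the Id rows are blue in both age columns.

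Known targets of the complex formed a list of 22 genes, which shares Lyl1 with the members and Runx1, Gfi1b and Gata1 with the lists above. In S/G2/M cells 3 of 21 tested targets rose with age and 2 fell, where 4.07% of all tested genes were called. Myb, a factor of blood progenitors, had 31.9 FPKM at E11.5 and 7.62 FPKM at E10.5 (log2 2.06; the authors' deposited table gave q = 0.00308). Kit, which encodes the sort marker CD117, had 30.0 FPKM at E11.5 and 12.6 FPKM at E10.5 (log2 1.25; the authors' deposited table gave q = 0.0285). Runx1 was the third. Aldh1a2, which makes retinoic acid, fell to 4.59 FPKM at E11.5, against 28.6 FPKM at E10.5 (log2 -2.64; q = 0.00548 by the authors' deposited table). Slc4a1, the anion exchanger of red cells, fell to 3.89 FPKM at E11.5, against 16.3 FPKM at E10.5 (log2 -2.06; q = 0.0405 by the authors' deposited table).

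In G1 cells Runx1 and Spi1 rose and Aldh1a2 fell, 3 of 21 tested targets, where 4.45% of all tested genes were called. Spi1, a factor of myeloid cells, had 108 FPKM at E11.5 and 24.4 FPKM at E10.5 (log2 2.15; the authors' deposited table gave q = 0.00861). Aldh1a2 had 3.08 FPKM at E11.5 and 31.0 FPKM at E10.5 in G1 cells (log2 -3.33). The endothelial cadherin gene Cdh5 had 201 FPKM at E11.5 and 100.6 FPKM at E10.5 in S/G2/M cells (the authors' deposited table gave q = 0.0823). Hhex, another target active in endothelium and blood, had 49.98 FPKM at E11.5 and 21.0 FPKM at E10.5 in S/G2/M cells (log2 1.25; the authors' deposited table gave q = 0.0998). The list medians were 1.002 in S/G2/M and 0.78 in G1 cells, against 0.03 and 0.02 for all genes. No target was called by phase. Before adjustment, 12 of 21 targets in S/G2/M cells and 7 of 21 in G1 cells had p under 0.05 by age (authors' deposited table), against 13.9% and 15.4% of all tested genes. By phase it was 5 of 21 at E11.5 and 1 of 19 at E10.5, against 8.27% and 6.69%.

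Markers of other cell types are given here because fewer cells of a type and less RNA per cell cannot be told apart in bulk samples. All 8 markers of the clusters were above 1 FPKM in every group, with a summed level of 569 FPKM in E11.5 S/G2/M cells, 609 in E11.5 G1 cells, 257 in E10.5 S/G2/M cells and 301 in E10.5 G1 cells. The 16 endothelial markers summed to 1021 FPKM in E11.5 S/G2/M cells, 1260 in E11.5 G1 cells, 541 in E10.5 S/G2/M cells and 707 in E10.5 G1 cells. For both lists the E11.5 sums were above the E10.5 sums. The megakaryocyte, macrophage, mast cell, and T cell and innate lymphoid sums below had this order too. In S/G2/M cells by age, 4 of 8 cluster markers and 4 of 16 endothelial markers rose and none fell, where 4.07% of all tested genes were called. Pecam1 was counted in both lists, and the called cluster markers Kit and Pecam1 encode CD117 and CD31, by which the cells were sorted. The 12 megakaryocyte markers, a lineage that uses this complex, summed to 567, 421, 269 and 297 FPKM in the groups in the same order, and 2 of 12 rose in S/G2/M cells by age.

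Macrophage markers rose with age as well, 9 of 14 tested in S/G2/M and 13 of 14 in G1 cells. Of all tested genes, 4.07% and 4.45% were called in these comparisons. The 15 markers summed to 1266 FPKM in E11.5 S/G2/M cells, 3456 in E11.5 G1 cells, 354 in E10.5 S/G2/M cells and 528 in E10.5 G1 cells, with Cd163 at 0 in 3 groups and 0.0205 FPKM in E11.5 G1 cells. Their sum was highest in E11.5 G1 cells, as were those of the cluster, endothelial, mast cell, and T cell and innate lymphoid markers. Without Cdh5, the most abundant cluster marker, the cluster sum was 372.5 FPKM in E11.5 S/G2/M cells and 366.67 in E11.5 G1 cells. Lmo2, Gata2, Lyl1 and Cbfa2t3 were highest in E11.5 S/G2/M cells, like the megakaryocyte sum and the cluster sum without Cdh5. The 13 red cell markers found summed to 3202 FPKM in E11.5 S/G2/M cells, 12314 in E11.5 G1 cells, 19696 in E10.5 S/G2/M cells and 15007 in E10.5 G1 cells. Of these, 3 of 13 fell in S/G2/M cells by age, the comparison in which the 3 members rose. Of 10 mast cell markers, 4 to 6 were at 0 in each group, Mcpt4, Tpsb2, Tpsab1 and Fcer1a in all 4, and the list summed to 81.9 FPKM in E11.5 S/G2/M cells, 92.3 in E11.5 G1 cells, 7.75 in E10.5 S/G2/M cells and 11.9 in E10.5 G1 cells. Without Srgn, the most abundant of them, the sums were 13.6, 38.1, 0.882 and 0.579 FPKM in the same order. By phase at E11.5, 7 of 14 macrophage and 3 of 13 red cell markers fell in S/G2/M cells, where 0.701% of all tested genes were called. The part of these cell types in the changes of the members was not tested.

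Beside Gata3, the 12 sympathoadrenal markers summed to 47.6 FPKM in E11.5 S/G2/M cells, 99.2 in E11.5 G1 cells, 105 in E10.5 S/G2/M cells and 317 in E10.5 G1 cells. Tubb3, a tubulin of neurons, had 15.0 FPKM in E11.5 S/G2/M cells, 26.5 in E11.5 G1 cells, 25.6 in E10.5 S/G2/M cells and 132 in E10.5 G1 cells. Gata3, this list and the mesenchymal and urogenital list below were all highest in E10.5 G1 cells and lowest in E11.5 S/G2/M cells. Between these, Gata3 was higher in E11.5 G1 cells (4.58 FPKM) than in E10.5 S/G2/M cells (2.61 FPKM), whereas both list sums were lower. By phase at E10.5, 3 of 12 sympathoadrenal markers fell in S/G2/M cells, where 0.655% of all tested genes were called. Of the 13 T cell and innate lymphoid markers, 1 to 5 were at 0 in each group, Cd3e in all 4, and their sum was 48.3 FPKM in E11.5 S/G2/M cells, 59.7 in E11.5 G1 cells, 28.0 in E10.5 S/G2/M cells and 21.8 in E10.5 G1 cells. Without Il2rg, a cytokine receptor gene and the most abundant of them, the sums were 18.8, 17.3, 19.5 and 11.7 FPKM in the same order. By age in S/G2/M cells 3 of 6 tested were higher and 3 lower, with Cd7 and Il2rg called as higher and Zbtb16 as lower. The 14 mesenchymal and urogenital markers summed to 51.95, 69.5, 182 and 219 FPKM in the groups in that order. With age in S/G2/M cells 4 of 13 tested fell, where 4.07% of all tested genes were called. The part of these cell types in the level of Gata3 was not tested.

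Genes with a pattern like a member's over the 4 groups were found among 9541 genes of at least 5 FPKM, by the root-mean-square difference of log2 levels centred on each gene's mean. The members fell close to different neighbours. Gata2 was nearest to Tmem173, which encodes the DNA-sensing adaptor STING, with a difference of 0.0088, then to Gimap6 (0.0607) and Elmo1 (0.0742). Tmem173 had 23.7 FPKM in E11.5 S/G2/M cells, 20.8 in E11.5 G1 cells, 8.26 in E10.5 S/G2/M cells and 8.62 in E10.5 G1 cells. Lmo2 was nearest to Zfp36l2 (0.0345), an RNA-binding protein gene with 72.5, 43.0, 32.1 and 22.4 FPKM in the groups in that order. The nearest gene to Cbfa2t3 was Klk8 (0.0611), to Lyl1 Pdxk (0.0749) and to Gata3 Dyrk1b (0.0268).

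Between members, Gata2 and Lyl1 differed by 0.127, Tal1 and Zfpm1 by 0.0960, and Gata2 and Tal1 by 0.774. A difference under 0.2 from Tal1 was found for 1759 genes and from Ldb1 for 1127 and from Zfpm1 for 1104, against 81 genes from Gata2, 64 from Lyl1, 40 from Lmo2, 39 from Gata3 and 37 from Cbfa2t3. With 4 values per gene such likeness is a description of these groups.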

How the data were processed

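In each table the authors deposited, a gene row gives the FPKM of 2 groups, per the file headers. The same rows hold the authors' deposited p-value, q-value and test status. The tools named are CASAVA 1.4, TopHat and Cuffdiff, with the build mm10, per the submitters' processing notes, whereas the labels' protocols name bowtie and mm8. The tables write G2 for the S/G2/M group. No source says how the 3 samples of each group entered the test, and the labels do not say whether they came from separate litters, so p-values may reflect technical spread. The depth and the precision it gives are unknown.

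Fold changes are ratios of the 2 FPKM values without a pseudocount. The authors' q-values matched Benjamini-Hochberg values recomputed over their tested genes to within 5.27e-07, and a gene with q under 0.05 was called. Starts are printed counting from 1. All 8 loci overlapped the GENCODE gene of the same symbol on GRCm38. The calculations were tested on simulated data. Genes were named by rule: all members, every called gene and the 3 most abundant of the partner, inhibitor, corepressor and target lists, and from marker lists the 3 most abundant and the lowest. Gata1, Tcf3, Ssbp2, Ssbp4, Gfi1b, Id4, Nfix, Pprc1, Cd7, Zbtb16 and the markers at 0 were added after their values were seen. The members, lists and tests were chosen with earlier results of these data known. Calculations used pandas 2.3.3 and numpy 2.4.6 under Python 3.11.15, and figures matplotlib 3.10.9.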

Additional observations from a re-analysis of the deposited data

How the results depend on the processing

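Of 180 recomputed counts of called genes, 169 stayed within 1.5 times the reported count. Much of this was fixed in advance. A pseudocount and median scaling leave the authors' q-values and so the calls as they are, and list counts of 0 could not fall. At a q threshold of 0.01, the members called in S/G2/M cells by age were 1 (Cbfa2t3), the partners 1 and the targets 3, and the partners called in G1 cells by age were 0. All genes called were then 0 by phase at E11.5 and at E10.5, because the smallest q of those tables is above 0.01, and 263 in S/G2/M and 301 in G1 cells by age. At the authors' threshold of 0.085, Lyl1 was called (log2 1.47), and the targets called were 9 in S/G2/M cells by age and 2 by phase at E11.5. Among genes reaching 5 FPKM in either group, 49 were called by phase at E10.5. Of 240 log2 differences of members, 1 changed sign, that of Ldb1 in G1 cells by age at -0.0884 under median scaling. Only median scaling and the phase comparisons deposited in the other order could change a sign. The thresholds, the filters and the pseudocount cannot, so most of the 240 were no test of direction. No paired analysis was possible because the deposited columns are group values, so replicates could not be left out either. Each member had 1 row, so the choice of row had no effect.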
